A study of Homo sapiens with 2 samples.

Results

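Isolated exons are exons that lie far from any other annotated exon of their strand. They were taken here as exons of at least 300 bp, outside the mitochondrial genome, with more than 20000 bp free of same-strand exons on either side. Of the 239322 exons listed, 3305 met this rule. The rule uses positions and lengths only. RNA came from the human liver cancer line Huh-7 (hepatocellular carcinoma, passages 15-20), and 1 library was sequenced for each condition. Control cells had received 0.1% DMSO for 24 h, and treated cells 0.1 mM BS008, a derivative of the diuretic amiloride, for 24 h. The libraries were made from total RNA with an Illumina mRNA-seq kit. The study asked how far BS008 alters alternative splicing across the genome.

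Most human genes are split into many exons, and the spliceosome joins them after the introns are cut out. A minority of genes consists of a single exon, and their RNA needs no splicing. Known examples are replication-dependent histone genes, olfactory receptor genes, interferon genes and many genes of transcription factors. An exon can also stand alone because very long introns separate it from the rest of its gene. For a single-exon gene, reads on the exon follow the RNA level of the gene, whereas for an exon between long introns they also follow its inclusion. The files name no genes, and the annotation at hand is of another build than hg19, the build given in the submitters' notes. Exons were therefore not assigned to genes, neither kind of isolated exon could be told from the other, and no liver marker could be checked. Coordinates are those of the files.

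Isolated exons were spread over every nuclear chromosome, in unequal parts. They were rarest on the gene-rich chromosome 19, with 51 of 13239 exons (0.385%), and on chromosome 17, with 87 of 13384 (0.65%). Their share was highest on the gene-poor chromosome 13, with 112 of 4336 exons (2.58%), followed by chromosome X with 177 of 8239 (2.15%). The strands held similar numbers, 1675 on plus and 1630 on minus.

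The median length of isolated exons was 928 bp, with quartiles of 477 and 1796 bp. The other 42720 nuclear exons of at least 300 bp had a median of 774 bp, with quartiles of 450 and 1556 bp. There were 323 isolated exons of 3000 bp or more. The nearest exon of the same strand lay at a median of 40038 bp, and for 564 isolated exons it was more than 100000 bp away. On the opposite strand, 2381 isolated exons had no exon within 20000 bp, while 223 overlapped at least 1 opposite-strand exon. For 7 isolated exons, no exon followed on one side before the end of the chromosome, and that side was taken as free.

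At the edge of the rule, the isolated exons with the smallest gaps were on chromosome 6, 90604188 to 90605817 (gap of 20033 bp), and on chromosome 13, 22275329 to 22278640 (20044 bp). The first had 0 reads in both libraries, and the second had 2 in control and 4 in BS008-treated cells. Just outside were exons on chromosome 8, 96166259 to 96168911 (gap of 20000 bp), and on chromosome 11, 93211641 to 93212450 (19991 bp). They had 386 and 886 reads, and 236 and 351 reads, in control and BS008-treated cells, respectively. For length, the first exons inside were of 300 bp on chromosome 1. The one at 58715912 to 58716211 had no reads, and the one at 93341853 to 93342152 had 45 and 37. Exons of 299 bp on chromosome 1, 198126108 to 198126406 (11 and 21 reads), and on chromosome 11, 122073472 to 122073770 (no reads), were the first outside.

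The library totals were 55476654 counts in control and 53578432 in BS008-treated cells. A count of 0 thus allows a share of up to 5.4e-06% and 5.6e-06% of these totals, respectively (3 counts). All intervals below are 95% intervals. For single exons and library shares, they cover the counting of reads only. For shares of exons and the median log2 ratio, they treat exons as independent draws. No condition has a second library, so the spread between cultures is unknown and no difference between the conditions, or between isolated and other exons, was tested.

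Fewer isolated exons than other exons of at least 300 bp carried reads. In control cells, 1732 isolated exons had at least 1 read (52.4%, exact binomial interval 50.7 to 54.1%), against 30800 of the other long exons (72.1%, 71.7 to 72.5%). BS008-treated cells had reads on 1838 isolated exons (55.6%, 53.9 to 57.3%) and on 31564 of the other long exons (73.9%, 73.5 to 74.3%). Both libraries had reads on 1619 isolated exons, and 1354 (41.0%) had none in either library. The share with reads was below that of the other long exons in each of 6 length classes and in both libraries. In the class of 300 to under 500 bp it was 49.1% against 65.6% in control cells, and in the class of 3000 to under 5000 bp it was 69.6% against 82.0%.

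**Figure D1:**
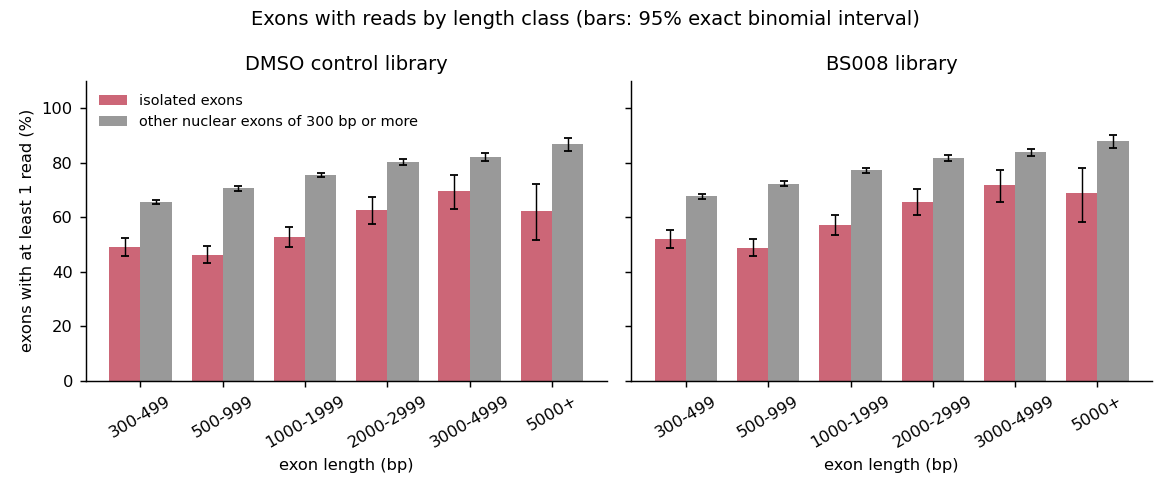
Percent of exons with at least 1 read (y axis) by exon length class in bp (x axis), for isolated exons and for the other nuclear exons of at least 300 bp, in the DMSO control library (left) and the BS008 library (right); error bars are 95% exact binomial intervals. In each class and in both libraries, the bar of the isolated exons is the lower one.

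Where reads were present, levels were also lower than on other long exons. RPKM, the count scaled to exon length and library total, had a median of 0.877 over the isolated exons with reads in control cells and of 0.864 in BS008-treated cells. The other long exons with reads had medians of 2.65 and 2.64. An RPKM of at least 10 was reached by 165 isolated exons (4.99%) in control and 155 (4.69%) in BS008-treated cells, against 16.9% and 17.2% of the other long exons. The share with reads was lowest at the widest gaps, but it did not fall at each step. Among exons whose nearest same-strand exon was over 20000 to 30000 bp away, 58.6% had reads in control cells. The share was 51.8% for up to 50000 bp, 52.3% for up to 100000 bp and 43.5% for up to 200000 bp. Among exons with a gap over 200000 bp it was 39.9%.

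A few isolated exons held much of the signal. In control cells, the 10 with the most reads held 39.8% of all reads on isolated exons, and the top 100 held 71.3%. In BS008-treated cells these shares were 31.8% and 67.6%. All isolated exons together took 1.32% of the control library (732338 counts, Wilson interval 1.317 to 1.323%) and 1.19% of the BS008 library (638367 counts, 1.189 to 1.194%).

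Whether counting had used the strand bears on those at the top. The files list 19 pairs of exons on opposite strands that overlap over at least 95% of both. The counts of the members were equal in 18 pairs in control and in 18 pairs in BS008-treated cells. Only 9 of these pairs had any reads, and 7 of them had equal counts in both libraries. One pair, for example, had 275 reads on either strand in control and 159 on either strand after BS008. Of the 223 isolated exons that overlap an opposite-strand exon, 29 lie wholly inside it, and none of them had more reads than the exon around it in either library. Counts on overlapping exons therefore do not show which strand the RNA came from.

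The isolated exon with the most reads was 978 bp long, on the plus strand of chromosome 12, 49521742 to 49522719. It had 87099 reads (RPKM 1605) in control and 25108 (RPKM 479) after BS008 (log2 ratio -1.74, interval -1.76 to -1.72). This exon lies wholly inside a minus-strand exon of 1154 bp with 87280 and 25142 reads (log2 ratio -1.74). The counts of both exons nearly coincide.

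A second exon of the same kind, 964 bp on the minus strand of chromosome 12, 49666046 to 49667009, had 56594 and 16926 reads (RPKM 1058 and 328, log2 ratio -1.69, interval -1.71 to -1.66). It lies inside a plus-strand exon of 1078 bp with 56851 and 17012 reads. On chromosome 11, the minus-strand exon of 4135 bp at 65266959 to 65271093 had 19721 and 23855 reads (log2 ratio 0.32, 0.30 to 0.35). The plus-strand exon of 8705 bp around it had 25145 and 30594 reads (log2 ratio 0.33). As the exons around them share these reads, the like ratios of both strands are no separate measurements.

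The other abundant isolated exons had no opposite-strand exon within 20000 bp. On chromosome 17, 19349247 to 19350178 on the minus strand (932 bp) had 33180 and 41631 reads (RPKM 642 and 834, log2 ratio 0.38, interval 0.36 to 0.40). The minus-strand exon of chromosome 14 at 66479154 to 66480632 (1479 bp) had 26960 and 24254 reads (RPKM 329 and 306, log2 ratio -0.10, -0.13 to -0.08). Reads on chromosome 12, 63359100 to 63359791 on the plus strand (692 bp), numbered 16423 and 22012 (RPKM 428 and 594, log2 ratio 0.47, 0.44 to 0.50). None of these 3 differed by 2-fold between the libraries. The nearest same-strand exons, 58743, 480749 and 361549 bp away, had between 0 and 3 reads in each library. On the opposite strand, the nearest exons had 2 and 8 reads for chromosome 17 (28659 bp away), 195 and 109 for chromosome 14 (269192 bp) and 248 and 140 for chromosome 12 (30184 bp). The sixth by RPKM, on chromosome 20, 30193092 to 30194313 on the plus strand (1222 bp), had 11574 and 14932 reads (RPKM 171 and 228, log2 ratio 0.42, 0.38 to 0.45). Reads shared with near-identical copies elsewhere in the genome could not be checked for any of these exons, as no sequence of hg19 was at hand, so their levels are uncertain.

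Leaving out the isolated exons that overlap an opposite-strand exon turned the direction of the summed share. The 223 overlapping exons took 0.407% of the control library and 0.234% of the BS008 library. The 3082 others took 0.913% (interval 0.911 to 0.916%) and 0.957% (0.955 to 0.960%). The lower sum over all isolated exons after BS008 therefore came from the overlapping ones, and the chromosome 12 exons at 49521742 and 49666046 alone went from 143693 to 42034 reads.

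Each exon was then compared between the libraries by the log2 ratio of BS008 to control on CPM, the counts scaled to the library total, with 0.5 added to each value. Intervals of log2 ratios include this 0.5. Where counts are low, ratios and intervals thus lie nearer 0 than those of CPM alone. Of the isolated exons, 1397 reached 10 counts in one library or both. With BS008, 107 of them (7.66%) were higher by 2-fold or more and 68 (4.87%) were lower by as much. Over all exons listed, 3.73% of 131330 were higher by this measure and 3.79% lower. Over the other long nuclear exons, the shares were 7.31% of 26931 and 5.46%. The shares of isolated exons past 2-fold were thus close to those of the other long exons. The groups were not matched here for length or read number. The median log2 ratio was 0.05 (quartiles -0.34 and 0.44) for isolated exons and 0.03 (-0.38 and 0.43) for the other long exons. Without overlap on the opposite strand, 97 (7.75%) of 1252 isolated exons were higher and 59 (4.71%) lower.

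The share past 2-fold varied with length, without a steady course. In the class of 300 to under 500 bp, 23 of 347 (6.63%) were higher by 2-fold and 6 (1.73%) lower. For 2000 to under 3000 bp, 19 of 195 (9.74%) were higher and 21 (10.8%) lower, and for 3000 to under 5000 bp, 16 of 137 (11.7%) were higher and 8 (5.84%) lower. The other long exons of the 3 classes had 5.06% higher and 3.82% lower, 9.38% higher and 7.80% lower, and 10.2% higher and 8.55% lower, respectively. Reads per exon bear on this count, since the pseudocount holds the ratios of exons with few reads near 0. With a larger count of 10 to under 50, 1.25% of the isolated exons were higher by 2-fold and 0.208% lower. Of the other long exons at that depth, 1.91% were higher and 0.518% lower. With 200 to under 1000 counts, 11.2% of isolated exons were higher and 9.51% lower, against 9.09% and 6.70% of the other long exons. The part of read number in the length pattern was not tested.

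**Figure D2:**
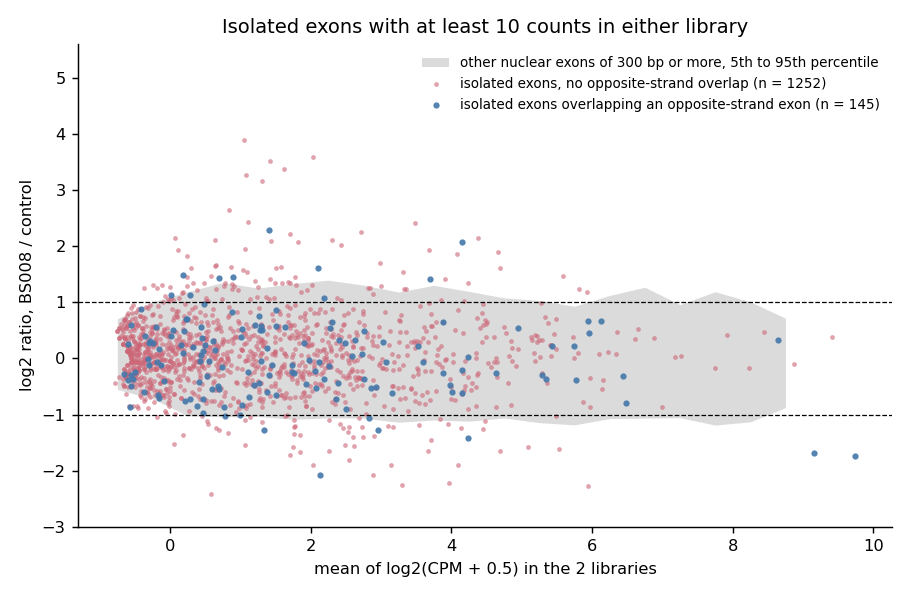
Log2 ratio of BS008 to control (y axis) against the mean of log2(CPM + 0.5) in the 2 libraries (x axis) for the 1397 isolated exons that reached 10 counts in one library or both; the grey band spans the 5th to 95th percentile of the other nuclear exons of at least 300 bp, and dashed lines mark 2-fold. Most isolated exons lie in the band, 6 without opposite-strand overlap stand above 3, and the 2 overlapping exons at the lower right are those on chromosome 12.

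The larger of both counts reached 100 for 714 isolated exons. Of these, 79 were 2-fold or more and 19 were 4-fold or more higher after BS008, and 62 and 6 were lower by as much. The shares past 2-fold were 11.1% higher and 8.68% lower, against 5.34% and 6.19% over all exons of that depth and 8.87% and 7.14% over the other long exons. Past 4-fold they were 2.66% and 0.84%, against 0.89% and 0.237% over all exons and 1.56% and 0.442% over the other long exons. These differences were not tested. The 19 lie on 12 chromosomes. The 6 highest and 6 lowest log2 ratios are described next.

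The highest ratio was found on chromosome 1, where a pair of short isolated exons stands head to head. On the plus strand, 228645808 to 228646258 (451 bp) had 2 reads in control and 399 in BS008-treated cells, so RPKM went from 0.0799 to 16.5 (log2 ratio 3.89, interval 3.64 to 3.98). With 1 added to CPM instead of 0.5, its log2 ratio was 3.03, below the 3.12 of the next exon. The ratio of CPM without a pseudocount was 207, with an interval of 56.8 to 1712 that reflects the 2 control reads. On the minus strand, 247 bp away, 228645066 to 228645560 (495 bp) had 38 and 734 reads (RPKM 1.38 and 27.7, log2 ratio 3.58, 3.28 to 3.87). Without a pseudocount, its ratio of CPM was 20.0 (interval 14.4 to 28.5). Both exons were low in control and well covered after BS008. Their next exons on the same strands, 28809 and 28334 bp away, did not share this, with 177 and 127 reads (log2 ratio -0.36) for the plus strand and 5 and 5 for the minus strand.

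A pair on the plus strand of chromosome 9 came next. The exon at 12821385 to 12823058 (1674 bp) had 16 and 459 reads in control and BS008-treated cells (RPKM 0.172 and 5.12, log2 ratio 3.52, interval 3.21 to 3.79). The exon at 12775012 to 12776026 (1015 bp) had 25 and 501 (RPKM 0.444 and 9.21, log2 ratio 3.37, 3.06 to 3.66). They are each other's nearest same-strand exons, 45358 bp apart. On the minus strand of chromosome 13, 110406186 to 110408655 (2470 bp) had 10 and 322 reads (RPKM 0.0730 and 2.43, log2 ratio 3.26, 2.94 to 3.49). Its nearest same-strand exon, 110434389 to 110438914, is isolated as well and had 12 and 213 reads (log2 ratio 2.64). The last of the 6, on chromosome 3 at 194406622 to 194409764 on the plus strand (3143 bp), had 18 and 370 reads (RPKM 0.103 and 2.20, log2 ratio 3.17, 2.84 to 3.44). Its nearest same-strand exon, 95634 bp away, went from 59 to 39 reads. All 6 were at an RPKM under 1.5 in control cells. Without a pseudocount, the CPM ratios of the chromosome 9 exons were 29.7 (interval 18.1 to 52.4) and 20.7 (13.9 to 32.4). For the exon of chromosome 13 at 110406186 the CPM ratio was 33.3 (17.9 to 70.2), and for that of chromosome 3 it was 21.3 (13.3 to 36.3).

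With the 0.5 added, the lowest ratio belonged to the plus-strand exon of chromosome 2 at 69472357 to 69476457 (4101 bp). It had 164 reads in control and 8 in BS008-treated cells (RPKM 0.721 and 0.0364, log2 ratio -2.41, interval -2.65 to -2.08). With 1 added instead, its ratio of -1.78 was the weakest of the 6. Without a pseudocount, its ratio of CPM was 0.0505 (interval 0.0214 to 0.102). The other 5 started from higher levels. On chromosome 19, the minus-strand exon at 33790842 to 33793430 (2589 bp) had 7441 and 1472 reads (RPKM 51.8 and 10.6, log2 ratio -2.27, -2.35 to -2.19). It was the most abundant of the 12 exons in control cells. On the plus strand, 332 bp away, an isolated exon of 2200 bp had 294 and 94 reads (log2 ratio -1.36).

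On chromosome 12, 110205817 to 110208299 on the plus strand (2483 bp) had 1156 and 214 reads (RPKM 8.39 and 1.61, log2 ratio -2.25, interval -2.44 to -2.06). Its nearest same-strand exon, 23783 bp away, had 144 and 21 (log2 ratio -1.80). The minus-strand exon of chromosome 17 at 36827961 to 36831187 (3227 bp) had 1833 and 361 reads (RPKM 10.2 and 2.09, log2 ratio -2.21, -2.37 to -2.06). On chromosome 4, 39408473 to 39409394 on the plus strand (922 bp) had 817 and 166 reads (RPKM 16.0 and 3.36, log2 ratio -2.08, -2.30 to -1.87), and its nearest same-strand exon had 405 and 115 (log2 ratio -1.56).

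On chromosome 10, the minus-strand exon at 99477217 to 99477902 (686 bp) had 472 and 88 reads (RPKM 12.4 and 2.39, log2 ratio -2.07, interval -2.34 to -1.80). It lies wholly inside a plus-strand exon of 955 bp that had 522 and 102 reads (log2 ratio -2.04). Its nearest same-strand exon, 30201 bp away, went the other way, from 366 to 602 reads (log2 ratio 0.73). Of the 12 exons named for their ratios, it is the only one that overlaps an exon of the opposite strand.

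**Figure D3:**
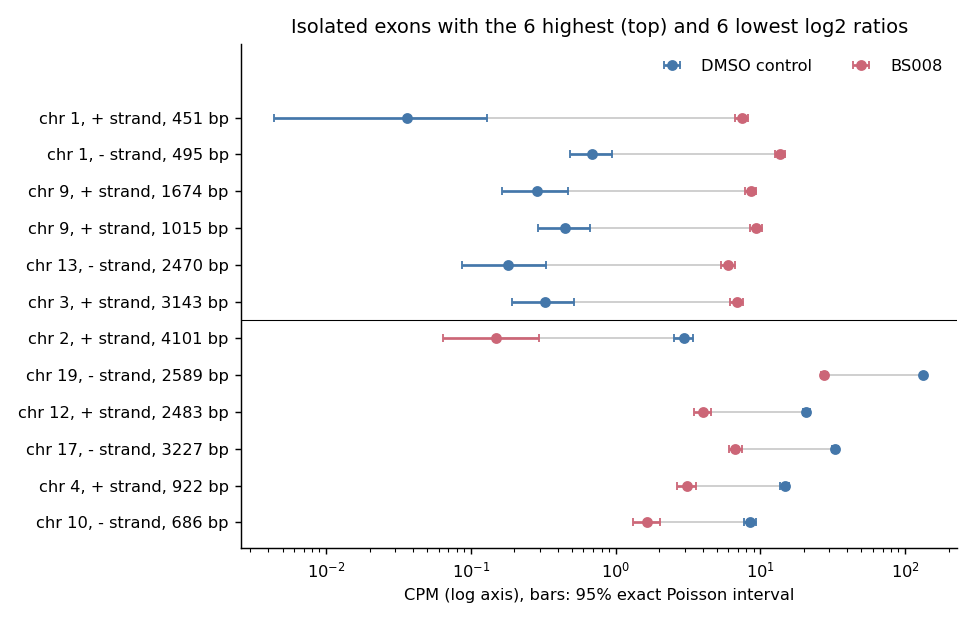
CPM on a log axis (x axis) in the DMSO control and BS008 libraries for the isolated exons with the 6 highest (top) and 6 lowest (bottom) log2 ratios among exons whose larger count reached 100; each row is 1 exon, and bars are 95% exact Poisson intervals. The intervals of the 2 libraries do not overlap for any of the 12, which were chosen for their ratios.

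Reads in only 1 library were found on 113 isolated exons in control and on 219 in BS008-treated cells, and 3 and 15 of them reached 10 counts. As shares of all isolated exons these are 3.42% and 6.63%, against 3.46% and 4.6% over all exons listed and 3.38% and 5.17% over the other long exons. At 10 counts the shares were 0.0908% and 0.454% for isolated exons, 0.0877% and 0.219% over all exons, and 0.159% and 0.419% over the other long exons. The highest count without any read in control cells was 91, on the minus strand of chromosome 1 at 237167403 to 237167718 (316 bp), at least 31.4-fold higher in BS008-treated cells against a floor of 3 counts in the control library. On chromosome 2, 11052063 to 11054350 had 0 and 37 reads (at least 12.8-fold higher), and on chromosome 8, 19362712 to 19363641 had 0 and 25 (at least 8.63-fold higher). In the other direction the counts were smaller. The minus-strand exon of chromosome 22 at 41077560 to 41077932 went from 23 reads to 0 (at least 7.40-fold lower), and it lies inside a plus-strand exon with 61 and 5 reads. On chromosome 12, 52501163 to 52502033 went from 22 to 0 (at least 7.08-fold lower), and on chromosome 4, 11399989 to 11401737 from 10 to 0 (at least 3.22-fold lower).

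The longest exons of the files were isolated ones. One of 59461 bp on the minus strand of chromosome 11, 2661768 to 2721228, had 5307 and 4138 reads (RPKM 1.61 and 1.30, log2 ratio -0.31, interval -0.37 to -0.25). The exon of 37567 bp on chromosome 13, 19408543 to 19446109, was nearly unread, with 31 and 27 reads. A plus-strand exon of 37027 bp on chromosome X, 73012040 to 73049066, had 6532 and 3627 reads (log2 ratio -0.79, -0.85 to -0.74). Of these, 6467 and 3577 were also the counts of a minus-strand exon of 7325 bp inside it, so almost all of its reads lay in that stretch. None of these 3 reached 2-fold.

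The ratios of isolated exons were then set beside those of a second exon, where the larger count of both exons reached 100. With an overlapping opposite-strand exon, 61 isolated exons had a Pearson correlation of 0.938 (Spearman 0.919) and a median absolute difference of 0.04 on the log2 scale. Exons that overlap nearly in full share reads, as shown above. Among the 223 overlapping isolated exons, however, the median overlap was 24.3% of the length, and for 57 it was 10% or less. How many reads the 61 pairs share was not measured. With the nearest exon of the same strand, over 20 kb away, the correlation across 298 isolated exons was 0.558 (Spearman 0.484), and the median absolute difference was 0.30. By gap, the correlation was 0.626 for over 20000 to 30000 bp (n = 132), 0.584 for up to 50000 bp (n = 88), 0.354 for up to 100000 bp (n = 56) and 0.558 beyond (n = 22), so it did not fall steadily with distance. The other long exons, compared with their nearest same-strand exon in the same way, had a correlation of 0.836 (n = 10575). With the nearest opposite-strand exon more than 20000 bp away, the correlation was 0.0903 (Spearman 0.141, n = 149). For opposite-strand exons 0 to 1000 bp apart it was 0.666 (Spearman 0.359, n = 34), and for 1000 to 20000 bp 0.317 (Spearman 0.378, n = 47). The median absolute difference was 0.81 at 0 to 1000 bp, 0.42 at 1000 to 20000 bp and 0.58 beyond. All these points come from the same pair of libraries, and an exon can enter more than once, so the values describe these libraries only.

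**Figure D4:**
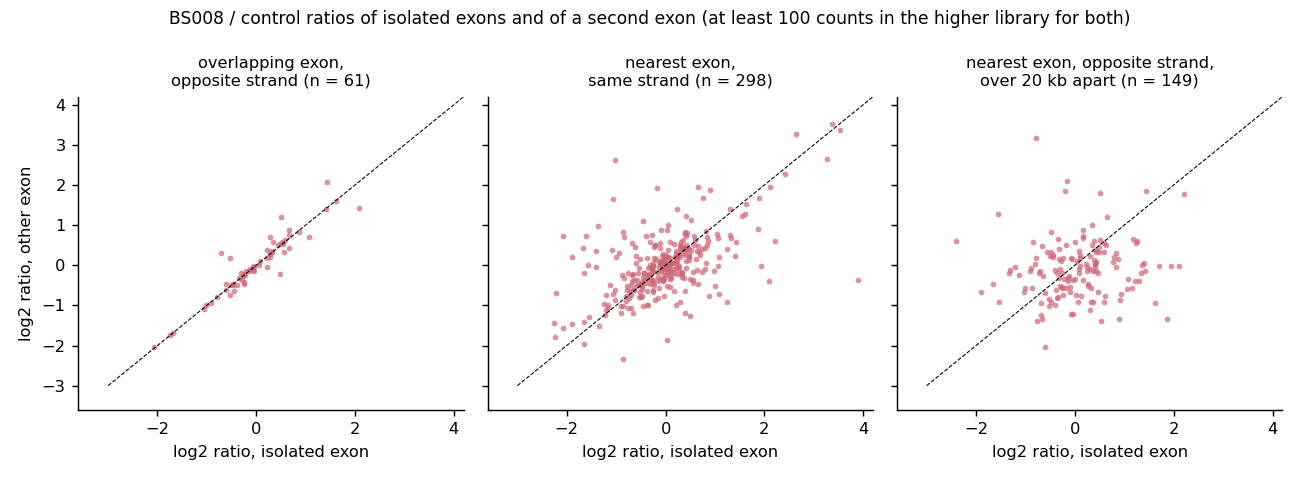
Log2 ratio of BS008 to control for isolated exons (x axis) and for a second exon (y axis), each with a larger count of 100 or more: an overlapping exon of the opposite strand (left, n = 61), the nearest exon of the same strand (middle, n = 298) and the nearest opposite-strand exon when over 20 kb away (right, n = 149); the dashed line marks equal ratios. Points follow the line closely on the left, more loosely in the middle and hardly on the right.

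On 17 occasions, isolated exons with at least 100 counts followed each other on a strand within 50000 bp. These and the pairs below were singled out after their values had been seen. The median absolute difference of their log2 ratios was 0.27, and the largest was 1.21. Both exons were higher by 2-fold or more in 3 pairs, which are those on chromosomes 9 and 13 given above and one on the minus strand of chromosome 2. There, 208841375 to 208842310 had 14 and 147 reads (log2 ratio 2.11) and 208865754 to 208866681 had 31 and 193 (1.95). In 0 pairs were both lower by 2-fold, and in 4 pairs only 1 exon passed 2-fold. One of these was on chromosome 18, where 55102917 to 55104176 went from 63 to 206 reads (log2 ratio 1.41) while 55143669 to 55158529, with 2131 and 2433 reads, had a ratio of 0.24. The smallest difference was on chromosome 7, where 75956108 to 75959550 had 7945 and 7778 reads and 75988039 to 75988342 had 156 and 153, with log2 ratios of 0.02 for both. Neighbouring pairs of other exons were not counted in this way, so the numbers of pairs past 2-fold have no background beside them.

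Pairs of isolated exons on opposite strands, within 1000 bp and without overlap, numbered 5 at that depth, and all of them stood head to head. Both exons were higher after BS008 in the pair on chromosome 1 and lower in the pair on chromosome 19, as given above. On chromosome 7, the pair at 104650989 and 104654637 differed little between the libraries (log2 ratios 0.16 and 0.32). The pair at 123388672 and 123389269 had log2 ratios of 0.49 and 1.35, and the pair at 155434168 and 155437203 had -0.34 and 1.58. In the last pair, reads went from 357 to 267 on the minus strand and from 38 to 163 on the plus strand, so opposite-strand isolated exons 89 bp apart did not always move alike.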

How the data were processed

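The authors deposited, for each of the 2 libraries, raw counts of reads per exon and RPKM values. Recomputing RPKM from the counts, the exon lengths and the library total returned the deposited values to within a relative difference of 1.76e-07. The submitters' processing notes name hg19; the aligner, counter and annotation are not given in the sources used here.

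Gaps were counted as the bases between exons of the same chromosome and strand. CPM used the library total, 0.5 was added before log2 ratios, and a count of 10 in one library or both was required. Intervals are Wilson (library shares), exact binomial (shares of exons, ratios), binomial ranks over exons (median ratio) and exact Poisson (counts). No statistical test was made. Named exons are the 6 highest and 6 lowest log2 ratios (larger count of 100 or more), the 6 highest by mean RPKM and by summed counts, the 3 longest, the 3 highest with 0 counts in the other library, and the 2 nearest on either side of each limit of the rule. The exons and these choices were made with earlier results of these data known. The planned gene and marker lists were not used, as no hg19 annotation was at hand. The script for ratios and fold calls was checked on simulated counts.

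Alternatives tried were other pseudocounts, folds, gaps, lengths, count minimums and scalings, and exons without opposite-strand overlap. Tools were Python 3.11.15 with pandas 2.3.3, numpy 2.4.6, scipy 1.17.1 and matplotlib 3.10.9, and edgeR 4.0.16 in R 4.3.3 for TMM factors.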

Additional observations from a re-analysis of the deposited data

How the results depend on the processing

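The counts of isolated exons at least 2-fold higher (107) and lower (68) depended on the pseudocount and on the fold. Adding 0.1 to CPM gave 209 higher and 151 lower, whereas adding 1 left 70 higher and 50 lower. At 1.5-fold, 251 were higher and 205 lower, and at 4-fold the counts were 20 and 6. For 2-fold, a gap over 10 kb (5728 exons) gave 203 and 139, and one over 50 kb (1310 exons) gave 29 and 23. The number of exons differs by construction between these gaps. All exons and the other long exons were not set beside these counts at the same settings. Whether isolated exons differ from them there was therefore not examined. The median log2 ratio moved from 0.0521 to 0.0898 with TMM factors, just past its interval (0.0200 to 0.0879). The TMM factors shift CPM ratios by 0.0492 on the log2 scale, and ratios with 0.5 added by less where counts are low.

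The percent of isolated exons with reads in control and BS008-treated cells was 56.6 and 58.7 with a gap over 10 kb, 47.9 and 50.2 with a gap over 50 kb, 46.3 and 48.4 without a length minimum, and 38.9 and 40.0 when at least 10 counts were required. The percent of library counts was 2.37 and 2.28 (10 kb), 0.763 and 0.586 (50 kb), 1.24 and 1.11 (at least 500 bp), 1.56 and 1.43 (no length minimum), and 0.913 and 0.957 without exons that overlap an opposite-strand exon. Of 63 values for summaries, 33 stayed within their limits. These limits were 1.5-fold of the main value for counts of exons past 2-fold, and the 95% interval of the main value for the other summaries. The tally depends on this choice of limits. For 19 single exons named for ratio, RPKM or counts, 30 of 95 values moved beyond their counting interval, 0 turned direction, and all 70 values of those past 2-fold stayed past it. With a pseudocount of 0.1 and 1, the log2 ratio was 5.79 and 3.03 for the exon of chromosome 1 at 228645808 and -3.62 and -1.78 for that of chromosome 2 at 69472357.

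No paired analysis was possible because each condition has 1 library, and leaving out a replicate was not possible. Exons with few reads are limited by depth, and differences between cultures cannot be judged.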

Other observations

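Exons under 300 bp that otherwise met the rule numbered 4866. Reads were found on 42.2% of them in control and on 43.5% in BS008-treated cells, below the 52.4% and 55.6% of the longer isolated exons. Where reads were present, their median RPKM was higher, at 2.40 and 2.47. A single read gives a higher RPKM on a shorter exon, so these medians are not directly comparable with those of the longer isolated exons. A count of 10 was reached by 1437 of them, of which 40 (2.78%) were higher by 2-fold or more after BS008 and 24 (1.67%) were lower by as much. Over all exons listed with that count, the shares were 3.73% and 3.79% of 131330. Other exons under 300 bp were not set beside them. They took 0.242% of the control and 0.235% of the BS008 library. Differences from the longer exons were not tested.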
